A study of Mus musculus with 18 samples.

Results

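The genes described here encode the enzymes that make nicotinamide adenine dinucleotide (NAD) from its precursors and the kinases that phosphorylate it to NADP. They were chosen by name, and 9 genes were found among the 34385 genes of the knockdown table and the 34396 genes of the overexpression table. Of these, 8 carried the expected gene name. The ninth, Nampt, was found by its identifier ENSMUSG00000020572.8, since both tables name that row Mampt. RNA came from EGFP-positive cells, sorted out of retinal explants of ICR mice, an outbred stock. The retinas received plasmids by electroporation at postnatal day 0.5 and were then cultured for 3 days. The knockdown table held 3 libraries each of cells with a plasmid expressing an shRNA to Nmnat1, cells with one to Nmnat2, and cells with a scramble plasmid. The overexpression table held 3 libraries each of cells with a plasmid expressing Nmnat1, cells with one expressing Nmnat2, and cells with the empty vector. All 6 groups also received a plasmid expressing EGFP, so that each library is bulk RNA of the retinal cells that took up DNA. Which promoters drove the plasmids, and which bases the shRNAs target, is not given in the sources used here.

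NAD is a carrier of electrons in metabolism and is consumed by enzymes such as sirtuins, PARPs and the axonal hydrolase SARM1, so cells rebuild it continuously. Most is salvaged: Nampt makes nicotinamide mononucleotide (NMN) from nicotinamide, and Nmrk1 makes it by phosphorylating nicotinamide riboside. The NMNAT enzymes then turn NMN into NAD with an adenylyl group from ATP, Nmnat1 in the nucleus, Nmnat2 on Golgi and vesicle membranes of neurons, and Nmnat3 in mitochondria. In the Preiss-Handler route Naprt makes nicotinic acid mononucleotide, an NMNAT makes its dinucleotide, and Nadsyn1 amidates that to NAD. Nadk in the cytosol and Nadk2 in mitochondria turn NAD into NADP. Variants in human NMNAT1 cause an early blindness, a form of Leber congenital amaurosis, so this step is of interest in the retina.

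The NMNAT genes are paralogues, and the plasmids carried or targeted single members of the family. Nmnat2 and Nmnat3, the pair with the longest run of bases in common, are shown where an ungapped stretch of their coding sequences is most alike. The lines give 75 bases (bases 193 to 267 of the coding sequence for Nmnat2, 187 to 261 for Nmnat3), read 5′ to 3′ on the coding strand from GENCODE transcripts on GRCm38. Capitals mark the 53 bases that are the same in both genes.
Nmnat2: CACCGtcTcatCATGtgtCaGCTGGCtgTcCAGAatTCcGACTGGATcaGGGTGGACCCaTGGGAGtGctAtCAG
Nmnat3: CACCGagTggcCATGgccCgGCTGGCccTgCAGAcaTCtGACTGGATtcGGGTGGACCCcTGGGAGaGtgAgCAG
Across whole coding sequences of 858 bases for Nmnat1, 924 for Nmnat2 and 738 for Nmnat3, the longest run shared by Nmnat1 and Nmnat2 was 10 bases, that shared by Nmnat1 and Nmnat3 was 11, and that shared by Nmnat2 and Nmnat3 was 14. No run of 31 bases occurred in the coding sequences of 2 of these genes.

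On GRCm38, Nmnat1 (ENSMUSG00000028992.13) lies on chromosome 4 from 149467572 to 149485202 on the minus strand. Nmnat2 (ENSMUSG00000042751.14) lies on chromosome 1 from 152954993 to 153119261 on the plus strand, and Nmnat3 (ENSMUSG00000032456.13) on chromosome 9 from 98287435 to 98420438 on the plus strand. Nampt lies on chromosome 12 from 32819545 to 32853349, Nadsyn1 on chromosome 7 from 143795584 to 143822849 and Nmrk1 on chromosome 19 from 18631950 to 18652428. Nadk lies on chromosome 4 from 155562378 to 155591001 and Nadk2 on chromosome 15 from 9071260 to 9110891. Naprt, on chromosome 15 from 75890956 to 75894481, shares 277 exon bases with Eef1d, a translation elongation factor gene on the same strand, so its values are uncertain. The other members overlapped no annotated gene in their exons.

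Levels are given in parts per 1000000 of a library's column sum (ppm), on a scale that corrects for transcript length. At an effective length of 1 kb, a level of 1 ppm was estimated at 12.4 to 20.7 reads in the knockdown libraries and 11.4 to 16.9 in the overexpression libraries. Libraries are called by their column names, of which N1_1 to N2_3 occur in both tables. One Nmnat2 knockdown library, N2_2, stood apart from the others of its table, at 128.7 on the first principal component against -31.2 to -5.83 for the other 8. Mitochondrial genes made up 6.51% of its signal, against 2.29% to 4.67% in the other 8, and it had the smallest column sum and the fewest genes above 0 (24523, against 25412 to 28953). In the overexpression table the libraries numbered 1 (N1_1, N2_1 and v1) lay at 33.9, 91.4 and 24.5, and the other 6 between -49.99 and -4.14. In this table N2_1 had the most genes above 0 (30718) and the highest mitochondrial share (3.18%, against 2.39% to 2.77% in the other 8). Calls of the genes described that depend on these libraries are given with and without them, and the part of RNA quality in them was not tested. Of 6 rod photoreceptor markers, 6 were detected in every group. The labels do not say whether the libraries of a group are from different animals or explants. The p-values therefore reflect variation among these libraries, part of which may be technical. In bulk RNA, fewer cells of a type and less RNA per cell cannot be told apart.

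In control cells the kinases were the most abundant of the 9 mRNAs, followed by Nmnat1. In scramble cells Nadk2 averaged 70.7 ± 8.13 ppm, Nadk 49.6 ± 11.7 ppm and Nmnat1 19.01 ± 1.99 ppm (SD, n = 3), each with all libraries above those of the next. With the empty vector the order was the same, at 99.6 ± 1.31 ppm for Nadk2, 67.8 ± 4.98 ppm for Nadk and 20.8 ± 1.97 ppm for Nmnat1. Nampt, Nadsyn1 and Nmrk1 came next, between 6.99 and 12.6 ppm on average, and neighbours in this order overlapped in both controls. Nmnat2, Nmnat3 and Naprt were lowest and overlapped each other too. With the empty vector each of these 3 was below the 3 genes before it in every library, whereas in scramble cells Nmnat2 reached 6.22 ppm in C1 and overlapped Nadsyn1 and Nampt. The tables were normalized apart, so levels are not tested across them.

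Nmnat1 mRNA was lower in cells with the Nmnat1 shRNA, at 7.37, 8.54 and 7.49 ppm, against 19.1, 20.9 and 16.96 ppm in scramble cells. The groups did not overlap, which was also true of 24.8% of all 22233 genes tested in this comparison. The ratio of means was 0.410 (log2 fold change -1.18 ± 0.25 SE), and by limma the adjusted p over all genes was 0.1304, which missed the threshold of 0.05. The adjusted p was 0.00406 without N2_2, a library of the other arm that enters the shared estimate of the spread, where 8.43% of 21669 genes passed. It passed in 3 of 18 alternatives and ranged over them between 0.00406 and 0.419, with a fold change of -1.26 to -0.91. Nmnat1 was at 21.1, 14.2 and 21.3 ppm in Nmnat2 knockdown cells, which overlapped scramble. The direct comparison of both arms passed (Nmnat1 knockdown over Nmnat2 knockdown, -1.16 ± 0.25, limma adjusted p = 0.0476, between 6.31e-05 and 0.184 over 18 alternatives), where 2.06% of all genes did. It no longer passed when any 1 of the 8 libraries other than N2_2 was left out, with a fold change of -1.22 to -1.06.

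Nmnat2 averaged 0.927 ppm in its own knockdown, against 2.96 ppm in scramble cells, and a decrease was not detectable beyond the spread of the scramble libraries. It was at 1.27, 1.01 and 0.503 ppm in Nmnat2 knockdown cells, against 6.22, 0.624 and 2.03 ppm in scramble cells. The scramble library C2 lay below the first 2 of these, and the difference did not pass (-0.79 ± 0.52, 95% interval -1.94 to 0.36, limma adjusted p = 0.476, exact permutation p = 0.3). With 1 library left out the log2 fold change ranged from -1.30 without C2 to -0.22 without C1, and it did not pass in any of 17 alternatives. Nmnat2 was at 2.71, 1.49 and 1.86 ppm in Nmnat1 knockdown cells, within the scramble range and above every Nmnat2 knockdown library. The ratio of means was 2.18 (Nmnat1 knockdown over Nmnat2 knockdown, log2 0.65 ± 0.52, limma adjusted p = 0.572, exact permutation p = 0.1, the smallest for 3 against 3), and the arms did not overlap for 25.4% of all genes. Every library labelled Nmnat2 knockdown thus had less of the targeted mRNA than every library of the other arm, by a difference that did not pass, and the group overlapped scramble.

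Nmnat3, the mitochondrial member, was at 1.01, 2.19 and 5.28 ppm in Nmnat1 knockdown cells and at 0.688, 1.199 and 0.362 ppm in Nmnat2 knockdown cells, against 1.43, 0 and 1.96 ppm in scramble cells. Both arms overlapped scramble. With the highest value in N1_3, the log2 fold change in Nmnat1 knockdown cells was 0.83 ± 0.54 (limma adjusted p = 0.633, 95% interval -0.37 to 2.02). It was 0.39 without N1_3 and 0.35 without the scramble library C2, and reached 1.21 without N1_1.

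The 3 NMNAT mRNAs together came to 11.1, 12.2 and 14.6 ppm in Nmnat1 knockdown cells and to 23.1, 16.4 and 22.1 ppm in Nmnat2 knockdown cells, against 26.8, 21.6 and 21.0 ppm in scramble cells. All Nmnat1 knockdown libraries were below the lowest scramble library, whereas the Nmnat2 knockdown libraries overlapped it. Nmnat1 made up 66.5%, 69.9% and 51.2% of this sum in Nmnat1 knockdown cells. Its share was 91.5%, 86.5% and 96.1% in Nmnat2 knockdown cells, against 71.4%, 97.1% and 81.0% in scramble cells. In empty-vector cells it made up 82.2%, 86.8% and 84.5%. Nmnat1 was thus the main NMNAT mRNA in all libraries without an NMNAT expression plasmid, those of its own knockdown included.

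**Figure D1:**
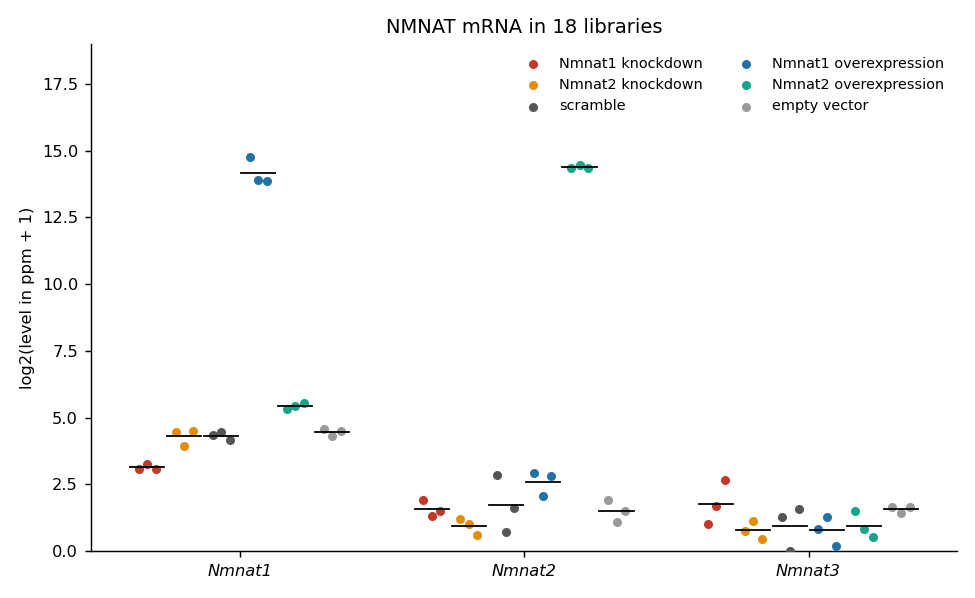
Levels of the 3 NMNAT mRNAs as log2(ppm + 1) on the vertical axis, with 1 point per library, a line at the mean of each group of 3, and each knockdown or overexpression group left of its control. Nmnat1 is low in its own knockdown (7.37 to 8.54 ppm) and both overexpressed genes stand far above all other points.

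In the overexpression table each plasmid raised its own mRNA. Nmnat1 was at 27832, 15347 and 14797 ppm in Nmnat1 overexpression cells, against 22.6, 18.7 and 21.3 ppm with the empty vector (log2 fold change 9.73 ± 0.21, limma adjusted p = 3.43e-09). Nmnat2 was at 20911, 22818 and 21014 ppm in Nmnat2 overexpression cells, against 2.71, 1.14 and 1.80 ppm with the empty vector (12.90 ± 0.24, limma adjusted p = 8.32e-10). They were the only members called among 9, where 0.121% of 20725 genes were called in Nmnat1 overexpression cells and 0.55% in Nmnat2 overexpression cells. The mRNA from either plasmid made up nearly all NMNAT mRNA, with a summed NMNAT level of 14803 to 27839 ppm and 20952 to 22861 ppm, against 21.5 to 27.4 ppm with the empty vector. Between the arms both genes passed (Nmnat1 overexpression over Nmnat2 overexpression, 8.74 for Nmnat1 and -11.81 for Nmnat2), where 0.0193% of all genes did.

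The level of the NMNAT gene that the plasmid did not carry, Nmnat1 or Nmnat2, was also above the empty vector in every library, by amounts that are small beside the plasmid's own mRNA. Neither difference passed with all libraries on the column-sum scale, unweighted and with no block for the library number. Nmnat1 was at 39.4, 42.4 and 45.6 ppm in Nmnat2 overexpression cells, all above the 18.7 to 22.6 ppm of the empty vector. This was a ratio of means of 2.04 (log2 0.99 ± 0.21, limma adjusted p = 0.0733, between 0.000226 and 0.313 over 21 alternatives, of which 6 passed). With all libraries it passed after quantile normalization and with array weights (limma adjusted p = 0.00208 and 0.00121), where 92 and 1251 of 20725 genes were called. The excess over the empty-vector mean averaged 21.6 ppm, which equals 0.112% of the Nmnat1 level in Nmnat1 overexpression cells. Nmnat2 was at 6.497, 3.12 and 6.08 ppm in Nmnat1 overexpression cells, above the empty-vector libraries (log2 1.10 ± 0.24, limma adjusted p = 0.122, between 0.0122 and 0.514 over 21 alternatives, of which 4 passed). It passed under the same 2 settings (limma adjusted p = 0.0363 and 0.0122), where 42 and 1540 genes were called. Its excess averaged 3.35 ppm, or 0.0155% of the Nmnat2 level in Nmnat2 overexpression cells. Groups without overlap were found for 16.3% of all genes in Nmnat2 overexpression cells and for 17.8% in Nmnat1 overexpression cells.

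Without all libraries numbered 1 both increases passed (Nmnat1 1.10 ± 0.07, limma adjusted p = 0.000226, and Nmnat2 1.14 ± 0.24, 0.0218). Of 17502 genes, 8.18% then passed in Nmnat2 overexpression and 11.1% in Nmnat1 overexpression cells. The Nmnat1 increase also passed without N1_1 alone, a library of the other arm. The shared runs of at most 14 bases given above describe coding bases alone. Runs of 31 coding bases were also sought in all annotated transcripts of the other gene, in both directions, with 0 found between Nmnat1 and Nmnat2. Whether reads or RNA of 1 arm entered libraries of the other was not tested. Nmnat3, which neither plasmid carried, did not share this direction. It was at 0.759, 1.43 and 0.151 ppm in Nmnat1 overexpression cells and at 1.80, 0.767 and 0.420 ppm in Nmnat2 overexpression cells, against 2.17, 1.71 and 2.11 ppm with the empty vector. In Nmnat1 overexpression cells all libraries were below those of the empty vector, and the difference did not pass (-0.81 ± 0.39, limma adjusted p = 0.563, exact permutation p = 0.1, the smallest for 3 against 3). Groups did not overlap for 17.8% of all genes in this comparison.

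The salvage enzymes that supply NMN showed no difference from a control past the threshold. Nampt, which catalyses the rate-limiting step of salvage from nicotinamide, was at 8.01, 10.4 and 8.44 ppm in Nmnat1 knockdown cells and at 12.8, 3.11 and 16.1 ppm in Nmnat2 knockdown cells, against 7.99, 5.53 and 8.78 ppm in scramble cells. In Nmnat2 knockdown cells the libraries N2_1 and N2_3 were above every scramble library and N2_2 below them all. The log2 fold change was 0.25 ± 0.49 with N2_2 (limma adjusted p = 0.841) and 0.89 ± 0.27 without it (adjusted p = 0.0556, the lowest of 18 alternatives, which reached 0.993). In the overexpression table Nampt was at 11.9, 10.1 and 9.70 ppm in Nmnat1 overexpression cells and at 16.6, 11.4 and 13.3 ppm in Nmnat2 overexpression cells, against 14.7, 12.2 and 10.8 ppm with the empty vector. Both groups overlapped the empty vector, with 95% intervals of the log2 fold change of -0.67 to 0.22 and -0.33 to 0.56.

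Nmrk1, the nicotinamide riboside kinase, stayed between 7.65 and 15.97 ppm in all 18 libraries. It was at 11.0, 8.26 and 10.4 ppm in Nmnat1 knockdown cells and at 11.1, 14.9 and 7.65 ppm in Nmnat2 knockdown cells, against 8.69, 14.0 and 11.3 ppm in scramble cells. It was at 9.15, 9.05 and 7.75 ppm in Nmnat1 overexpression cells and at 15.97, 10.6 and 9.34 ppm in Nmnat2 overexpression cells, against 10.7, 8.84 and 9.66 ppm with the empty vector. All 4 groups overlapped their controls, and the log2 fold changes lay between -0.16 and 0.24. Every Nmnat1 overexpression library was below every Nmnat2 overexpression library, by a difference that did not pass (-0.40 ± 0.22, limma adjusted p = 0.953).

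The Preiss-Handler enzymes showed no difference past the threshold either. Nadsyn1, the NAD synthetase, was at 8.44, 7.48 and 11.5 ppm in Nmnat1 knockdown cells and at 8.94, 6.65 and 6.96 ppm in Nmnat2 knockdown cells, against 6.15, 10.1 and 4.73 ppm in scramble cells. It was at 8.36, 5.63 and 9.0 ppm in Nmnat1 overexpression cells and at 8.69, 8.11 and 7.72 ppm in Nmnat2 overexpression cells, against 14.8, 9.29 and 6.14 ppm with the empty vector. The groups overlapped in each case, and the limma adjusted p was between 0.729 and 0.891. Naprt, the nicotinate phosphoribosyltransferase, ranged from a listed 0 in the scramble library C2 and the Nmnat1 overexpression library N1_3 to 5.68 ppm in the Nmnat1 knockdown library N1_2. The 95% interval of its log2 fold change was -0.74 to 1.96 in cells with the Nmnat1 shRNA and -1.38 to 1.31 in those with the Nmnat2 shRNA, both against scramble. It was -1.42 to 1.43 in Nmnat1 overexpression and -1.24 to 1.60 in Nmnat2 overexpression cells against the empty vector.

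**Figure D2:**
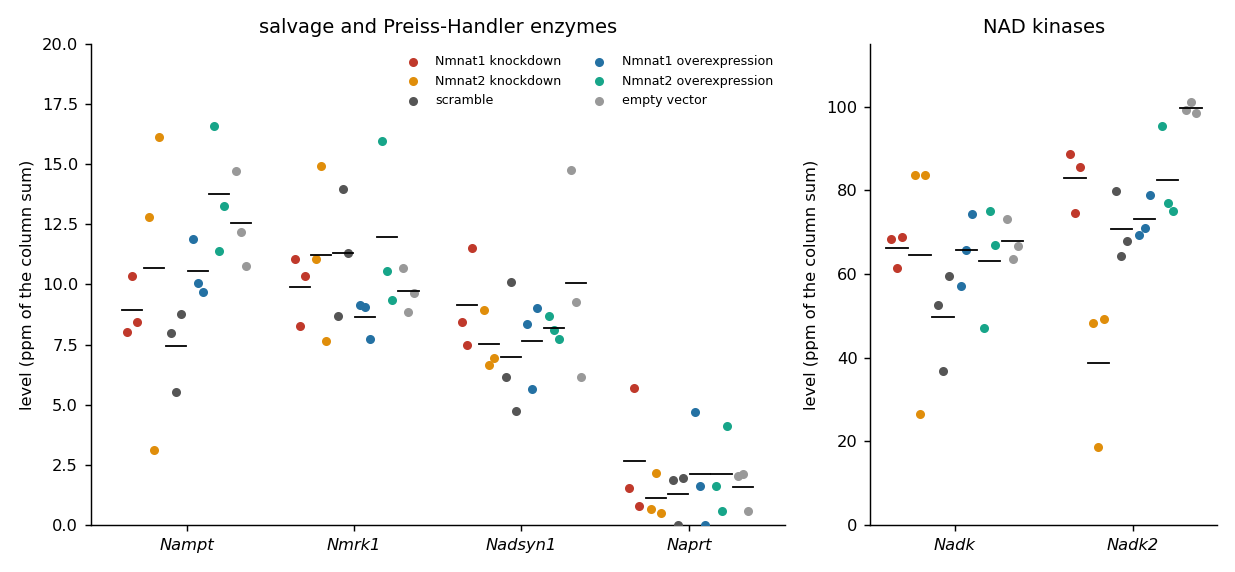
Levels in ppm of the salvage and Preiss-Handler enzyme mRNAs (left panel) and of the NAD kinase mRNAs (right panel), with 1 point per library and a line at the mean of each group of 3. Most groups overlap their control, while Nadk2 in Nmnat2 knockdown cells (18.6 to 49.1 ppm) and in both overexpression groups lies below it.

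All libraries had less mRNA of the mitochondrial kinase Nadk2 than all control libraries in 3 of the 4 comparisons, none of which passed by limma with all libraries weighted alike. With array weights, which give deviating libraries less weight, all 3 passed (limma adjusted p = 0.0215 in Nmnat2 knockdown, 0.00944 in Nmnat1 overexpression and 0.0208 in Nmnat2 overexpression cells). With these weights 5101 of all 22233 genes were called in Nmnat2 knockdown cells. Of 20725 genes, 1540 were called in Nmnat1 overexpression and 1251 in Nmnat2 overexpression cells. Nadk2 was at 48.4, 18.6 and 49.1 ppm in Nmnat2 knockdown cells, against 79.8, 64.4 and 67.8 ppm in scramble cells, so every Nmnat2 knockdown library was below every scramble library. The groups did not overlap for 21.9% of all genes in this comparison. The log2 fold change was -0.97 ± 0.33 (limma adjusted p = 0.184, between 0.0215 and 0.319 over 18 alternatives), where the median of all genes was -0.23. Without N2_2, the lowest library, it was -0.52 ± 0.13 and passed (adjusted p = 0.0237), where 15.5% of 21669 genes passed. With median-of-ratios scaling, which put the median of all genes at -0.04, Nadk2 was at -0.74 ± 0.27. In Nmnat1 knockdown cells Nadk2 was at 88.6, 74.6 and 85.6 ppm, overlapping scramble (0.23 ± 0.33, limma adjusted p = 0.844). Between the arms it was higher in Nmnat1 knockdown than in Nmnat2 knockdown cells in every library (1.199 ± 0.33, limma adjusted p = 0.106, between 0.00107 and 0.298 over 18 alternatives), and without N2_2 this passed (0.75 ± 0.13, 0.00386). With all libraries it passed after quantile normalization and with array weights (limma adjusted p = 0.0274 and 0.00107). Under these settings 682 and 6072 of 22233 genes were called. The arms did not overlap for 25.4% of all genes, and 13.5% passed without N2_2.

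In the overexpression table Nadk2 was at 69.3, 71.0 and 78.9 ppm in Nmnat1 overexpression cells and at 95.3, 77.0 and 75.1 ppm in Nmnat2 overexpression cells, against 99.2, 101.1 and 98.5 ppm with the empty vector. All 6 libraries with an NMNAT plasmid were below the 3 empty-vector libraries, which are shared by both comparisons. Groups did not overlap for 17.8% of 20725 genes in Nmnat1 overexpression and for 16.3% in Nmnat2 overexpression cells. The log2 fold change of Nadk2 was -0.44 ± 0.11 in Nmnat1 overexpression cells (limma adjusted p = 0.180, between 0.00944 and 0.567 over 21 alternatives). It was -0.28 ± 0.11 in Nmnat2 overexpression cells (limma adjusted p = 0.425, between 0.0208 and 0.748 over 21 alternatives), where N2_1 was close to the control. Without the libraries numbered 1 both passed, at -0.41 ± 0.08 and -0.39 ± 0.08 (limma adjusted p = 0.0176 and 0.0265), where 11.1% and 8.18% of 17502 genes passed. The Nmnat1 result also passed without N2_1 alone. The overexpression arms did not differ from each other past the threshold (-0.17 ± 0.11, 95% interval -0.42 to 0.09).

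The cytosolic kinase Nadk was in no group below its control in all libraries. Its profile, centred on each table's mean, correlated with that of Nadk2 at r = 0.488 (Pearson) over the 18 libraries. Without N2_2, where both kinases were lowest, r was -0.166 over 17 libraries. Nadk was at 68.3, 61.5 and 68.7 ppm in Nmnat1 knockdown cells and at 83.6, 26.4 and 83.7 ppm in Nmnat2 knockdown cells, against 52.5, 36.7 and 59.5 ppm in scramble cells. Every Nmnat1 knockdown library was above scramble (0.43 ± 0.39, limma adjusted p = 0.736), and groups did not overlap for 24.8% of all genes in this comparison. In Nmnat2 knockdown cells N2_1 and N2_3 were the highest of the 9 libraries and N2_2 the lowest, for a log2 fold change of 0.23 ± 0.39 (limma adjusted p = 0.820, between 0.0168 and 0.984 over 18 alternatives). Without N2_2 Nadk rose in Nmnat2 knockdown cells (0.77 ± 0.18, limma adjusted p = 0.0185), where 15.5% of all genes passed. In the overexpression table Nadk was at 57.1, 65.8 and 74.4 ppm in Nmnat1 overexpression cells and at 47.0, 75.1 and 67.0 ppm in Nmnat2 overexpression cells, against 73.3, 63.5 and 66.7 ppm with the empty vector. Both groups overlapped the control, with 95% intervals of -0.43 to 0.33 and -0.51 to 0.25.

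The ratio of Nadk2 to Nadk within a library does not depend on how the library is scaled. It was chosen after the levels had been seen, so it is given without a test. It was 0.579, 0.703 and 0.587 in Nmnat2 knockdown cells and 1.30, 1.21 and 1.25 in Nmnat1 knockdown cells, against 1.52, 1.75 and 1.14 in scramble cells. Nadk was thus the more abundant kinase mRNA in the 3 Nmnat2 knockdown libraries, N2_2 included, and the less abundant one in the other 15 libraries. The ratio was 1.21, 1.08 and 1.06 in Nmnat1 overexpression cells and 2.03, 1.03 and 1.12 in Nmnat2 overexpression cells, against 1.35, 1.59 and 1.48 with the empty vector. Every Nmnat1 overexpression library was below the empty vector, while N2_1 was the highest of all 18.

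**Figure D3:**
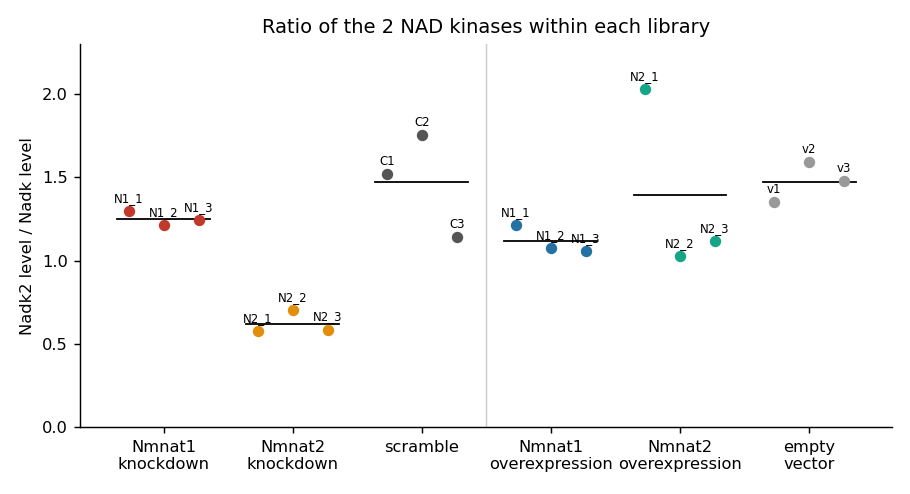
Ratio of the Nadk2 level to the Nadk level on the vertical axis, 1 labelled point per library, with a line at the mean of each group of 3. The Nmnat2 knockdown libraries lie at 0.579 to 0.703, below 1, and the Nmnat2 overexpression library N2_1 lies at 2.03.

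Summed levels of several lists of retinal cell type markers also differed between groups. Only the sums were compared, without a test, so a sum may rest on 1 abundant gene. Among single genes, 16.3% to 24.8% of all genes did not overlap their control in the 4 comparisons. The summed level of 6 rod markers (6 of 6 found) was 1271 to 1604 ppm in Nmnat2 knockdown cells and 3092 to 3179 ppm in Nmnat1 knockdown cells, against 2198 to 2394 ppm in scramble cells. It was 1594 to 2533 ppm in Nmnat1 overexpression cells and 1588 to 1888 ppm in Nmnat2 overexpression cells, against 2689 to 2908 ppm with the empty vector. The rod sum was thus below the control in the same 3 groups as Nadk2, as was the sum of 4 genes listed as bipolar markers, while the cone sum was below it in all 4. Of the 4 genes listed as bipolar markers, Vsx1 and Grm6 averaged under 1 ppm in every group. Their sum thus rests on Trpm1 and Otx2 and is not read as a measure of bipolar cells. It was 978 to 1505 ppm in Nmnat2 knockdown and 1855 to 2052 ppm in Nmnat1 knockdown cells, against 1745 to 1902 ppm in scramble cells. It was 1599.9 to 1723 ppm in Nmnat1 and 1560.3 to 1778 ppm in Nmnat2 overexpression cells, against 1799 to 1949.7 ppm with the empty vector. The summed level of 4 cone markers was 44.9 to 83.9 ppm in Nmnat2 knockdown and 137 to 146 ppm in Nmnat1 knockdown cells, against 178 to 197 ppm in scramble cells, and 104 to 149 and 86.1 to 114 ppm in Nmnat1 and Nmnat2 overexpression cells, against 239 to 299 ppm with the empty vector. For 5 amacrine markers the sum was 213 to 482 ppm in Nmnat2 knockdown and 25.7 to 31.1 ppm in Nmnat1 knockdown cells, against 120 to 140 ppm in scramble cells. It was 119.9 to 227 ppm in Nmnat1 and 85.5 to 194 ppm in Nmnat2 overexpression cells, above the 58.7 to 71.5 ppm of the empty vector.

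In both knockdown groups the sum of 4 Müller glia markers was below the control. Cells with the Nmnat1 shRNA had 471 to 493 ppm and those with the Nmnat2 shRNA 452 to 677 ppm, against 968 to 1020.5 ppm in scramble cells, while both overexpression groups overlapped the empty vector. The sum of 5 progenitor markers was 96.9 to 108 ppm in Nmnat1 knockdown cells and 159 to 422 ppm in Nmnat2 knockdown cells, against 219 to 247 ppm in scramble cells. It was 293 to 464 ppm in Nmnat1 and 236 to 479.96 ppm in Nmnat2 overexpression cells, against 206 to 279 ppm with the empty vector. None of the rod, cone, bipolar, amacrine, Müller glia and progenitor markers was at 0 in all libraries of a group. The part of cell composition in the levels of Nadk2, Nadk and Nmnat1 was not tested.

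Taking the 9 members by comparison, 0 passed against scramble by limma in either knockdown (Nmnat1, then Nmnat2), where 0.144% and 0.436% of 22233 genes did. At an unadjusted limma p under 0.05 there was 1 member in each, Nmnat1 in Nmnat1 knockdown cells, where 10.5% of all genes were below it, and Nadk2 in those with Nmnat2 knocked down, where 16.8% were. No overlap with scramble was found for 2 of 9 members in Nmnat1 knockdown cells (Nmnat1 and Nadk) and for 1 in Nmnat2 knockdown cells (Nadk2), against 24.8% and 21.9% of all genes. There was no overlap with the empty vector for 4 in Nmnat1 overexpression cells (Nmnat1, Nmnat2, Nmnat3 and Nadk2) and 3 in Nmnat2 overexpression cells (Nmnat1, Nmnat2 and Nadk2), against 17.8% and 16.3% of all genes. These counts include the gene that each plasmid carried or targeted. Of the 7 members other than Nmnat1 and Nmnat2, no overlap was found for 1, 1, 2 and 1 in the same order. The shares of members in the knockdown groups were thus no higher than those of all genes. The median log2 fold change of the 7 members other than Nmnat1 and Nmnat2 was 0.38 in Nmnat1 knockdown, -0.03 in Nmnat2 knockdown, -0.23 in Nmnat1 overexpression and -0.13 in Nmnat2 overexpression cells. The median of all genes tested was -0.00338 in Nmnat1 knockdown, -0.23 in Nmnat2 knockdown, -0.04 in Nmnat1 overexpression and 0.06 in Nmnat2 overexpression cells.

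**Figure D4:**
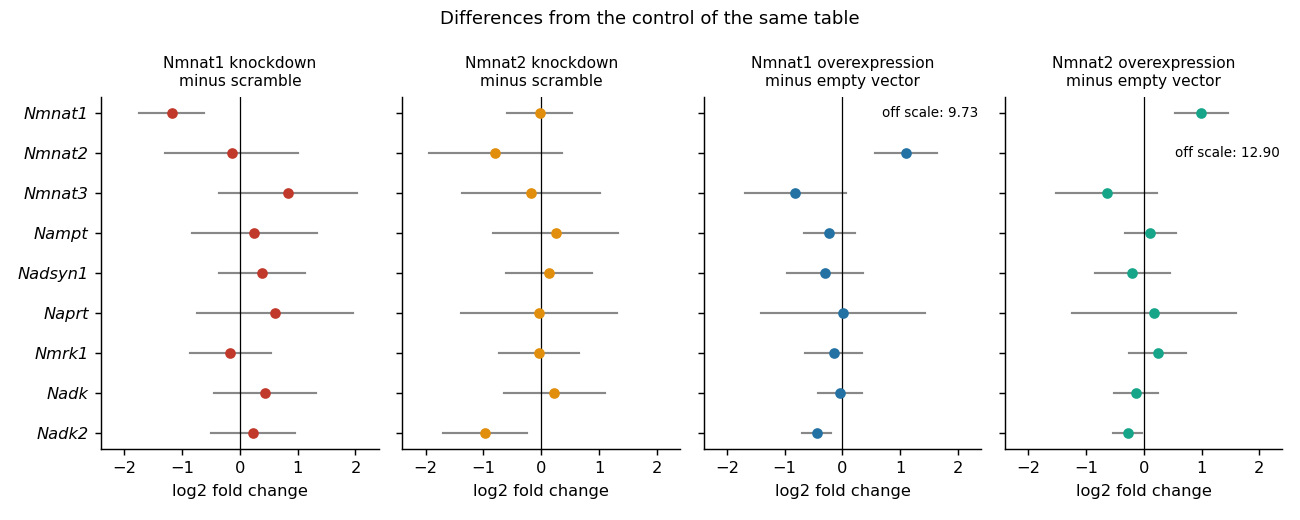
Log2 fold changes of the 9 members against the control of the same table, with the 95% interval from limma as a line. Nmnat1 lies off the scale at 9.73 in its own overexpression and Nmnat2 at 12.90 in its own, and the intervals of Nadk2 lie below 0 in 3 of the 4 comparisons.

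Other genes around NAD were described by lists. A list of 11 genes covered de novo synthesis from tryptophan and side branches of that route (Kyat1, Aadat and Acmsd). Of these, 8 were tested in the knockdown table and 7 in the overexpression table, and 0 passed in any comparison with a control. The aminotransferase gene Kyat1, of a side branch, was at 37.2 ± 8.99 ppm in Nmnat2 knockdown cells and 71.9 ± 8.56 ppm in scramble cells (SD, n = 3 each, log2 -0.95 ± 0.23, limma adjusted p = 0.0956). The kynureninase gene Kynu was at 1.63 ± 0.777 ppm and 5.22 ± 0.743 ppm in the same groups (-1.27 ± 0.38, 0.143). Both fell past the threshold without N2_2, where 15.5% of 21669 genes passed. Kmo, a low gene of the same list, was at 0.903 ± 0.985 ppm in Nmnat1 knockdown and 0.697 ± 0.0240 ppm in Nmnat2 knockdown cells. In scramble cells Kmo was at 3.09 ± 0.0470 ppm, and neither difference passed (-1.22 ± 0.40 and -1.27 ± 0.40, limma adjusted p = 0.314 and 0.158). Of the genes of precursor handling and transport, 17 of 19 were tested in each table and 0 passed against a control.

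In that list Pnp, the purine nucleoside phosphorylase that also splits nicotinamide riboside, was at 336 ± 10.8 ppm in Nmnat1 knockdown cells and 198 ± 5.92 ppm in scramble cells (0.76 ± 0.18, limma adjusted p = 0.148). Between the arms it was the 1 gene of the list called with all libraries, higher in Nmnat1 knockdown than in Nmnat2 knockdown cells, where it was at 172 ± 40.1 ppm (0.98 ± 0.18, limma adjusted p = 0.0216). The cytosolic nucleotidase gene Nt5c was at 127 ± 16.8 ppm in Nmnat1 knockdown and 91.8 ± 0.947 ppm in Nmnat2 knockdown cells (0.46 ± 0.16, limma adjusted p = 0.184), and the solute carrier gene Slc12a8 at 19.7 ± 2.62 ppm and 12.1 ± 4.16 ppm (0.70 ± 0.27, 0.232). With overexpression Pnp was at 185 ± 7.73 ppm in Nmnat1 cells and 174 ± 11.3 ppm in Nmnat2 cells, against 231 ± 14.4 ppm with the empty vector (-0.32 ± 0.09 and -0.41 ± 0.09, limma adjusted p = 0.241 and 0.0988). Nt5e, the surface 5′-nucleotidase CD73, was at 75.3 ± 3.81 ppm in Nmnat1 knockdown cells against 113 ± 14.1 ppm in scramble cells (adjusted p = 0.435). It was at 137 ± 28.2 ppm in Nmnat1 and 120 ± 22.6 ppm in Nmnat2 overexpression cells, against 184 ± 21.6 ppm with the empty vector (adjusted p = 0.434 and 0.172). Without N2_2 Pnp rose and Nt5e and the transporter gene Slc29a4 fell in Nmnat1 knockdown cells, and Pnp, Nt5c and Slc12a8 fell in Nmnat2 knockdown cells. Of all 21669 genes, 8.43% and 15.5% passed in these 2 comparisons. Between the arms Pnp, Nt5c and Slc12a8 were then called higher, and Nt5e and Slc29a4 lower, in Nmnat1 knockdown cells, where 13.5% of all genes passed. Without the libraries numbered 1, Pnp and Nt5e fell and Slc29a4 rose in each overexpression arm. There 11.1% (Nmnat1) and 8.18% (Nmnat2) of 17502 genes passed.

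All 10 genes of NAD(P) interconversion and repair were tested, and 0 passed against a control. Naxe, the epimerase that repairs hydrated NADH and NADPH, was at 129 ± 19.4 ppm in Nmnat2 knockdown cells and 246 ± 33.5 ppm in scramble cells (-0.93 ± 0.17, limma adjusted p = 0.0501). The NADP-dependent malic enzyme gene Me1 was at 8.60 ± 3.76 ppm and 24.5 ± 5.46 ppm in the same groups (-1.48 ± 0.36, 0.0986), and both fell past the threshold without N2_2, where 15.5% of all genes passed. Naxe was at 128 ± 9.44 ppm in Nmnat1 overexpression cells and 171 ± 15.97 ppm with the empty vector (-0.42 ± 0.15, limma adjusted p = 0.354), and Me1 at 17.1 ± 5.78 ppm and 24.4 ± 5.11 ppm (-0.51 ± 0.26, 0.584). Without the libraries numbered 1 both fell in Nmnat1 overexpression cells, where 11.1% of all genes passed. Of the 10 genes, 0 were called in Nmnat2 overexpression cells, where 8.18% of all genes passed. Without N2_2, Noct, a phosphatase that turns NADP into NAD, rose and the glucose-6-phosphate dehydrogenase gene G6pdx fell in Nmnat1 knockdown cells, where 8.43% of all genes passed. Between the arms Naxe was then called higher, and G6pdx lower, in Nmnat1 knockdown cells, where 13.5% of all genes passed.

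Sarm1, whose product degrades NAD in injured axons and is held in check by Nmnat2 activity, was at 32.1 ± 7.87 ppm in Nmnat1 knockdown and 32.8 ± 16.1 ppm in Nmnat2 knockdown cells, against 31.6 ± 2.295 ppm in scramble cells. It was at 36.9 ± 3.86 ppm in Nmnat1 overexpression and 33.3 ± 9.71 ppm in Nmnat2 overexpression cells, against 33.7 ± 2.54 ppm with the empty vector. Its log2 fold changes were between -0.09 and 0.13.

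Among 11162 genes that averaged 5 ppm or more in both tables, the profile of Nadk over the 18 libraries, centred on each table's mean, was most like those of Gpsm1 (Pearson's r = 0.960) and Hdgfl2 (0.955). That of Nadk2 was most like Lypla1 (0.953) and Sephs2 (0.947), and that of Nampt most like Abhd17b (0.912) and Cep120 (0.908). The library N2_2, which stands apart, has the lowest level of all 3 members. Nmrk1 was most like Mterf3 (0.810) and Zfp808 (0.805), and Nadsyn1 most like Nol12 (0.685) and Tada2a (0.646). Over the 9 knockdown libraries, Nmnat1 was most like Wbp2 (0.996) and Hist1h1c (0.982). These values are descriptions picked as the highest of many and share libraries and depth.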

How the data were processed

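RNA of EGFP-positive retinal cells was made into libraries with SMART-Seq v4 and Nextera DNA Flex kits, per the labels' protocols, which do not mark strand. The submitters' processing notes name Salmon 0.11.3, sleuth 0.30.0 and GRCm38.p6 without saying what each was used for. The values deposited by the authors are named TPM, but columns summed to 14.4 to 29.6 and 17.3 to 26.2 times 1000000, so they were taken as a signal per length whose normalization is not stated. The incomplete last line of each table was left out. Values were divided by the column sum (ppm). A gene was kept when 3 or more of the 9 libraries of its table had 1 ppm or more, which all 9 members passed in both tables. A limma model (version 3.58.1, R 4.3.3) was fitted to log2(ppm + 1). The 3 groups of a table shared 1 spread, with a mean-variance trend. This scale understates changes of low genes. Tests were two-sided, with Benjamini-Hochberg adjustment over all genes of a comparison and a threshold of 0.05. The fit was tested on simulated data with known log2 changes of 1 and 2. The changed genes were drawn from those with a mean log2(ppm + 1) above 2. The shares given here thus do not cover genes as low as Nmnat2, Nmnat3 and Naprt in control cells. With the spread of the knockdown libraries the fit called 12% and 56% of the changed genes in a simulated comparison of Nmnat1 knockdown with scramble. In a simulated comparison of Nmnat1 overexpression with the empty vector it called 51% and 82%. Changes of this size can thus miss the threshold, most of all in the knockdown table.

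Reads per ppm were estimated in genes with 1 transcript, by the scale that brought low values of a library closest to whole reads. With this fitted scale, 67.4% to 82.4% of low values lay within 0.1 of a whole read, where 20% of evenly spread values would. The scale was picked for this closeness, so the share is no test of it. Relative depths were 0.774 to 1.35 and 0.833 to 1.16. Other genes have no single length, so read counts could not be restored and no count test was run. Coordinates and sequences came from GENCODE M21; the Nmnat1 sequence is not reported here. Knockdown columns show a group but not which sample. The titles of 1 Nmnat2 knockdown and 1 Nmnat2 overexpression sample name Nmnat3, and their descriptions, which name Nmnat2, were followed. The members and lists were chosen with earlier results of these data known. Members were all named, and up to 4 genes of a list by smallest p. Alternatives covered the pseudocount, filter, scaling, groups in the fit, trend, weights per library, single libraries left out, the replicate block and leaving out the libraries numbered 1.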

Additional observations from a re-analysis of the deposited data

How the results depend on the processing

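The number of genes called moved by more than 1.5 times under several settings. In Nmnat1 knockdown cells against scramble (32 genes) it was 19 without a filter, 113 with quantile normalization, 1029 with only both groups in the fit, 1 without the trend and 868 with array weights. In Nmnat2 knockdown cells against scramble (97 genes, 17 higher and 80 lower) it was 43 without a filter, 190 at 5 ppm, 173 with quantile normalization, 0 with only both groups or without the trend (limma, with 2779 and 3776 genes at an unadjusted p under 0.05), and 5101 with array weights. The split there was 66 higher and 33 lower with median-of-ratios scaling and 64 and 109 with quantile normalization. Between the knockdown arms (458 genes, 299 higher and 159 lower) it was 150, 162 and 6072 with both groups only, no trend and array weights, and the split was 203 and 398 with median-of-ratios scaling and 348 and 334 with quantile normalization. In Nmnat1 overexpression cells (25 genes) it was 54 at 5 ppm, 9 with median-of-ratios scaling, 42 with quantile normalization, 2 without the trend, 1540 with array weights and 1951 without the libraries numbered 1. In Nmnat2 overexpression cells (114 genes, 42 higher and 72 lower) it was 67 without a filter, 181 at 5 ppm, 71 with median-of-ratios scaling, 5 without the trend, 1251 with array weights and 1431 without the libraries numbered 1, and the split was 39 and 44 with a column sum that leaves out Nmnat1 and Nmnat2. Between the overexpression arms (4 genes) it was 2 with both groups only, 25 with array weights and 51 without the libraries numbered 1. With 1 library left out the counts ranged over 0 to 1826, 0 to 3359, 83 to 2933, 3 to 271, 3 to 321 and 2 to 9 in the same order. The highest counts in the knockdown table came without N2_2, and those in the overexpression table without N1_1 (271 and 9) or N2_1 (321). Where limma made 0 calls, an unadjusted p under 0.05 was found for 1655 and 1917 genes (Nmnat1 knockdown) and for 2781 to 3428 genes (Nmnat2 knockdown). The cause of these shifts was not tested.

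The replicate block, with the number in the label as a term, gave 187, 269 and 4 genes in the 3 overexpression comparisons. The labels do not say what a number shares. Between groups, deviations of same-numbered libraries correlated at 0.0271 to 0.461, and those of differently numbered ones at -0.379 to 0.242. The libraries numbered 1 correlated at -0.379 to -0.0627 with those of other numbers. N2_3 was closer to N1_2 (0.242) than to N1_3 (0.139), so not every library was closest to its own number. Under the block Nmnat1 in Nmnat2 overexpression cells (adjusted p = 0.0398) and Nmnat2 in Nmnat1 overexpression cells (0.0412) passed. No paired analysis was possible for the knockdown table because its columns carry no label's number.

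Several small fold changes changed sign, none of them past the threshold in the reversed direction. In Nmnat2 knockdown cells, where the median of all genes is -0.23 with column sums, -0.04 with median-of-ratios scaling and -0.00129 with quantile normalization, Nmnat1 was at 0.20 and 0.15 with these scalings and 0.19 with array weights, Nmnat3 at 0.13 with quantile normalization, Naprt at 0.11 and 0.27 with these scalings and 0.0288 with a pseudocount of 0.5, and Nmrk1 at 0.19 and 0.27. In Nmnat1 overexpression cells Naprt was at -0.12 with a pseudocount of 0.5, and with array weights and without the libraries numbered 1 Naprt was at -0.27 and -0.45 and Nadk at 0.0446 and 0.10. In Nmnat2 overexpression cells Nadk was at 0.0531 and 0.12 under the same 2 settings, and Nadsyn1 at 0.0566 without the libraries numbered 1. With 1 library left out the log2 fold change ranged in Nmnat1 knockdown cells from -0.65 to 0.42 for Nmnat2. In Nmnat2 knockdown cells it ranged from -0.12 to 0.16 for Nmnat1, -0.64 to 0.14 for Nmnat3, -0.14 to 0.89 for Nampt, -0.0746 to 0.40 for Nadsyn1, -0.55 to 0.23 for Naprt, -0.25 to 0.19 for Nmrk1 and -0.0433 to 0.77 for Nadk. In Nmnat1 overexpression cells it ranged from -0.60 to 0.66 for Naprt and -0.14 to 0.0478 for Nadk. In Nmnat2 overexpression cells it ranged from -0.0197 to 0.23 for Nampt, -0.47 to 0.10 for Nadsyn1, -0.27 to 0.58 for Naprt and -0.27 to 0.0663 for Nadk, and the Nadk2 to Nadk ratio minus that of the empty vector from -0.40 to 0.10. That ratio was added after seeing the data. The cause of these changes was not tested. Below about 5 ppm, the level of Nmnat2, Nmnat3 and Naprt, spread between libraries limits what can be seen.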
